A study of Rattus norvegicus with 63 samples.

Results

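The 32 genes described here are named astrocyte genes, and their transcripts were measured in striatum and prefrontal cortex (PFC) of rats that had self-administered amphetamine, methamphetamine, methylphenidate or saline. They were chosen by symbol: a probe set was used when the array annotation gave it a single symbol on the list, and the probe set with the highest mean signal stood for each gene. The arrays held 31 of the 32 genes and 14218 genes in all; no probe set was annotated to Sox9 alone. Of the 31, 29 lay among the 8530 genes of each region that passed the filter on low signal and were tested. Kcnj10, an inward rectifier potassium channel, and Slc6a11, a GABA transporter, fell under that filter, with mean log2 signals of 5.34 and 4.74 in striatum and 5.44 and 5.05 in PFC.

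Astrocytes are the glial cells that clear glutamate and potassium released by neurons, convert glutamate to glutamine, pass metabolites through gap junctions and line blood vessels with their endfeet. They carry receptors for transmitters, among them dopamine and noradrenaline, and in injury or inflammation they enlarge and make more of the intermediate filament proteins of their cytoskeleton. In the striatum, the target of midbrain dopamine axons and a site where psychostimulants raise extracellular dopamine, they surround the projection neurons; in the PFC they surround pyramidal neurons.

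All rats were male Wistar rats that arrived at 4 weeks of age and were treated from 6 weeks. In the pretreated cohort, rats of the stimulant groups had 2 intraperitoneal injections a day for 7 days of the drug they later took (5 mg/kg), where the naive cohort had saline. All were then trained for place preference. Pretreated rats were conditioned with 5 mg/kg; naive rats were conditioned with 5 mg/kg of methylphenidate, or with 1.25 or 5 mg/kg of amphetamine and of methamphetamine. Last, they self-administered infusions of the same drug, which delivered 0.1 mg/kg of amphetamine and of methamphetamine alike, or 0.25 mg methylphenidate in a volume of 0.1 ml, so the infused doses were not matched. Saline rats of both cohorts were labelled saline at every stage, so the saline groups of the pretreated and the naive cohort differed in cohort and not in labelled treatment. Brains were taken a day after the last session, and the striatal samples joined rostral caudate putamen with nucleus accumbens. According to the labels, the rats with the most robust self-administration were used, so the arrays describe those animals and not all that were trained. Of the 63 arrays, 32 were of striatum and 31 of PFC. Each stimulant group held 3 arrays, except methamphetamine at 1.25 mg/kg in naive PFC with 2; saline groups held 3 arrays per region in the pretreated cohort and 5 in the naive cohort. The labels speak both of rats and of pools, so the p-values measure the spread between these samples, whatever each holds.

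Values are log2 of the deposited array signal, and differences are log2 differences, tested with limma and Benjamini-Hochberg adjustment over the 8530 genes of a comparison; a gene rose or fell where its adjusted p lay under 0.05. Levels of different genes are not set against each other, since each probe set has its own brightness. Arrays of a group correlated at 0.931 to 0.958 over all probe sets. The naive arrays lay in 2 sets by the BioB control, a bacterial transcript spiked into the hybridisation: 23 arrays had log2 signals from 9.35 to 10.63 and 16 arrays from 5.96 to 6.68. The high set held naive saline samples 1 to 3, amphetamine at 1.25 mg/kg and methamphetamine at both doses, the low set held naive saline samples 4 and 5, amphetamine at 5 mg/kg and methylphenidate, and the 24 pretreated arrays lay between 9.01 and 10.21. One array labelled naive striatum, methamphetamine at 1.25 mg/kg, sample 1, had a mean of striatal projection neuron markers of 9.41, against at least 11.97 on the other striatal arrays; the main naive striatal comparisons that use its group are also given without it.

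Promoters of genes that rose in pretreated striatum are shown here as background to their values. RefSeq windows from 250 bases before to 50 after a transcript start (assembly GRCr8) were matched for 29 of the 32 genes; Sox9, Clu and Cyp4f4 had no entry. Of the 6 genes that rose in pretreated striatum, described next, 5 had an entry, and the windows printed below are those with a motif match, from synemin (Synm), glutamine synthetase (Glul, the second of its 2 windows) and Mlc1. The windows of Mertk and Hopx and the first window of Glul held none and are not printed. Capitals mark TTGGC, part of the nuclear factor I motif, on either strand (GCCAA on the other). The full motif is bound by a family of regulators of astrocyte differentiation.
Synm, chr1:130773775-130774074, minus strand: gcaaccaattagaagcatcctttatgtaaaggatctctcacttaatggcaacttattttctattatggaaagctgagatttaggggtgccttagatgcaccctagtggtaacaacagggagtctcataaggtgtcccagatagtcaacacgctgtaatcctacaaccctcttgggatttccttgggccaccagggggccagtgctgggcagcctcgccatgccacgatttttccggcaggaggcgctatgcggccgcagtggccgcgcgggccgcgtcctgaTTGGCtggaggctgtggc
Glul, chr13:68575816-68576115, plus strand: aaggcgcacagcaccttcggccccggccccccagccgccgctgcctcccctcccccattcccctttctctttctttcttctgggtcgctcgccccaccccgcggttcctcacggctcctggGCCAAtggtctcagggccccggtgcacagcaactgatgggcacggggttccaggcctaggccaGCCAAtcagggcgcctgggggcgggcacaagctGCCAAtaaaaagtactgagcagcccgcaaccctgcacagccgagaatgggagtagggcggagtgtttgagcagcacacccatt
Mlc1, chr7:121946649-121946948, minus strand: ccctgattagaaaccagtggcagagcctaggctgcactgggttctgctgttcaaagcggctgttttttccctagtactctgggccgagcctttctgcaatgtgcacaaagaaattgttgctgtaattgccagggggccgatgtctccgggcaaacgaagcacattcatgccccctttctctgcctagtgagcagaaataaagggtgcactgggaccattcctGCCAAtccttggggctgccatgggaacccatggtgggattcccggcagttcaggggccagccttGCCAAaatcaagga
The Glul window held 3 matches, the Mlc1 window 2 and the Synm window 1. Of the 29 genes, 17 (58.6%) had a match in a window, against 47.8% of 27370 genes. The STAT motif TTCNNNGAA, its own reverse complement, was in 2 of the 29 (6.90%, against 9.40% of all genes). AGAACA, part of the glucocorticoid receptor motif and searched on both strands, was in 3 (10.3%, against 21.6%). None of the 3 motifs contains another. A match describes the letters of a short window and is not a site of binding.

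In pretreated striatum, astrocyte genes were higher on the stimulant arrays than on the saline arrays. Over the 3 stimulants together, 28 of 29 genes lay above saline, with a median difference of 0.29 against -0.01 for all genes, of which 47.3% lay above saline. Glul, Synm, Cyp4f4, Mlc1, Mertk and Hopx rose (6 of 29), where 31 of the 8530 genes passed, 0.363%, and 0.211% passed upwards; none of the 29 fell. At an unadjusted p under 0.05, 16 of the 29 were higher, against 7.98% of all genes. The mean over the 29 genes of each array ran from 11.66 to 11.91 with a median of 11.77 in the 9 stimulant arrays, and from 11.40 to 11.56 with a median of 11.46 in the 3 saline arrays, so the groups did not overlap. In bulk tissue, a difference in the number of astrocytes and a difference in RNA per astrocyte cannot be told apart.

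**Figure D1:**
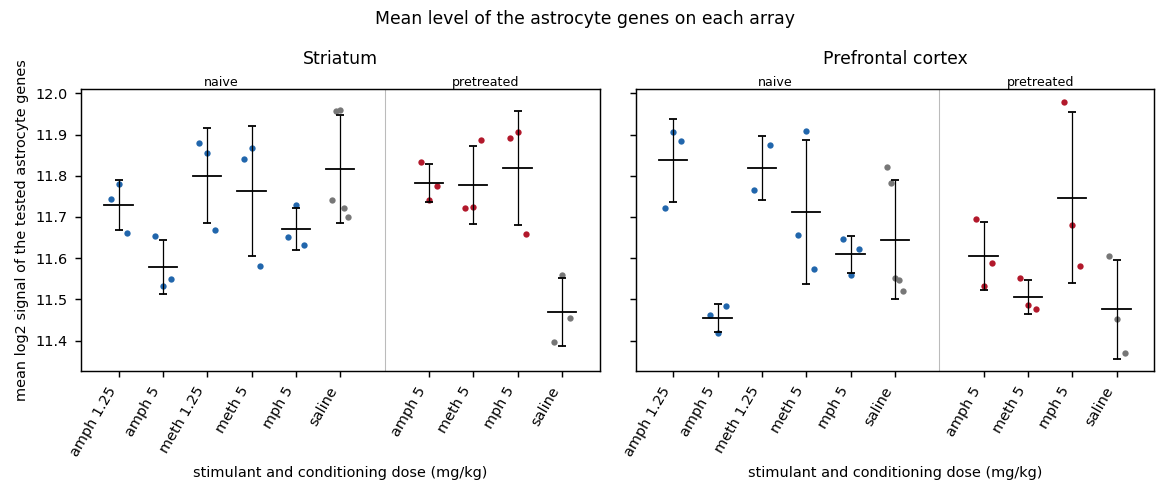
Mean log2 signal of the 29 tested astrocyte genes on each array (y axis) by group (x axis), striatum left and PFC right; dots are arrays and bars are group means ± SD. In striatum the 3 saline arrays of the pretreated cohort lie between 11.40 and 11.56, under all 9 arrays of pretreated stimulant rats (11.66 to 11.91) and under the naive saline arrays (11.70 to 11.96).

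The cytoskeletal genes stood highest as a group in pretreated striatum, with a median difference of 0.58 over 3 genes and 1 that passed. Synm encodes synemin, an intermediate filament protein that copolymerises with vimentin and GFAP in astrocytes. Its signals were 10.23, 9.92 and 9.93 with amphetamine, 9.89, 10.35 and 10.25 with methamphetamine and 10.18, 10.31 and 9.81 with methylphenidate, against 9.39, 9.54 and 9.47 with saline. Every stimulant array lay above every saline array, and Synm rose 1.55-fold (log2 difference 0.63 ± 0.129 SE, n = 9 and 3, adjusted p = 0.0264). Synm has 3 probe sets, and its values are of the brightest, so agreement of the others is not shown. Gfap, the classical astrocyte filament, had a lowest, median and highest signal of 10.92, 11.27 and 11.53 with stimulants, against 10.78, 11.12 and 10.63 with saline. Its groups overlapped and its difference of 0.47 ± 0.170 did not pass (adjusted p = 0.177). Vim, the filament of immature and reactive astrocytes and also of ependymal and vascular cells, ran from 10.84 to 12.05 around a median of 11.27, against 10.80, 10.72 and 10.66. The groups did not overlap, yet the stimulant arrays spread widely, and the difference of 0.58 ± 0.220 did not pass (adjusted p = 0.197).

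Among genes of transmitter handling, Glul, the enzyme that turns glutamate into glutamine, rose 1.37-fold (0.45 ± 0.0886, adjusted p = 0.0241). It had signals of 13.65, 13.54 and 13.55 with amphetamine, 13.44, 13.55 and 13.73 with methamphetamine and 13.45, 13.64 and 13.21 with methylphenidate, against 12.99, 13.08 and 13.15 with saline. The lowest stimulant array, a methylphenidate one, lay just above the highest saline array. The glutamate transporters did not pass: the difference was 0.23 ± 0.0757 for Slc1a3 (GLAST, adjusted p = 0.144) and 0.04 ± 0.116 for Slc1a2 (GLT-1, adjusted p = 0.875). The small neutral amino acid transporter Slc7a10 differed by 0.09 ± 0.147. Glul has further probe sets, which in a fit of all probe sets gave lesser differences of 0.30 (adjusted p = 0.366) and 0.10.

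Of the channel, water and gap junction genes, Mlc1 rose 1.43-fold (0.51 ± 0.115, adjusted p = 0.0435). MLC1 is a membrane protein of perivascular astrocyte endfeet, and its loss in humans causes a leukoencephalopathy with cysts. Its signals were 12.85, 12.49 and 12.51 with amphetamine, 12.53, 12.63 and 12.66 with methamphetamine and 12.62, 12.77 and 12.28 with methylphenidate, against 11.93, 12.27 and 12.04 with saline. The highest saline array and the lowest stimulant array were almost level. The other members of the group ranged from -0.02 for Slc4a4, a sodium bicarbonate cotransporter, to 0.47 ± 0.240 for Gjb6 (connexin 30, adjusted p = 0.332), with Aqp4, the endfoot water channel, at 0.19, Gja1 (connexin 43) at 0.17 and Atp1b2, a sodium pump subunit, at 0.01. Gjb6 spread most, with 10.26, 11.51 and 11.65 on the methamphetamine arrays.

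Cyp4f4, a cytochrome P450 of the family that hydroxylates fatty acids and leukotrienes, rose 1.64-fold (0.71 ± 0.139, adjusted p = 0.0241), from a probe set near the filter. Its signals ran from 7.69 to 8.47 with a median of 8.19 with stimulants, against 7.32, 7.63 and 7.33 with saline, without overlap. The genes grouped here as metabolic, with Ndrg2 among them, all lay above saline (6 of 6, median 0.36). On a separate list of glycogen and lactate genes, 7 of 13 did (median 0.02). Ndrg2, a stress-responsive protein of astrocyte processes, differed by 0.37 ± 0.0950 (adjusted p = 0.0643) and Aldoc, the brain form of aldolase in glycolysis, by 0.37 ± 0.102 (adjusted p = 0.0799), both without overlap between groups. The acyl-CoA synthetase Acsbg1 differed by 0.35 ± 0.115 (adjusted p = 0.136), Cbs, which makes cystathionine from homocysteine, by 0.30 ± 0.176, and the folate enzyme Aldh1l1 by 0.12 ± 0.147.

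Mertk had the greatest difference of the 29, at 1.69-fold (0.76 ± 0.168, adjusted p = 0.0425). MERTK is a receptor tyrosine kinase with which astrocytes and microglia engulf synapses and debris, so its signal is not specific to astrocytes. It had 9.45, 9.73 and 9.56 with amphetamine, 9.20, 9.60 and 9.75 with methamphetamine and 9.57, 9.75 and 9.14 with methylphenidate, against 9.08, 8.75 and 8.49 with saline. These are values of the brighter of its 2 probe sets, and the other is not shown. Ntsr2, a neurotensin receptor, differed by 0.29 ± 0.141 and Fgfr3, a fibroblast growth factor receptor, by 0.09 ± 0.107. Hopx, a homeodomain protein of neural stem cells and astrocytes that binds no DNA itself, rose 1.67-fold (0.74 ± 0.170, adjusted p = 0.0468). Its signals were 11.68, 11.41 and 11.27 with amphetamine, 11.51, 12.29 and 11.82 with methamphetamine and 11.29, 11.77 and 11.02 with methylphenidate, against 10.79, 11.03 and 10.64 with saline, with the lowest methylphenidate array level with the highest saline array. Id3 and Id4, inhibitors of differentiation, differed by 0.15 ± 0.173 and 0.27 ± 0.157. None of the secreted proteins passed, with S100b at 0.38 ± 0.114 (adjusted p = 0.109), Apoe, the lipid carrier, at 0.27, Sparcl1, an inducer of synapses, at 0.26 ± 0.0816 (adjusted p = 0.111) and clusterin (Clu) at 0.10.

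**Figure D2:**
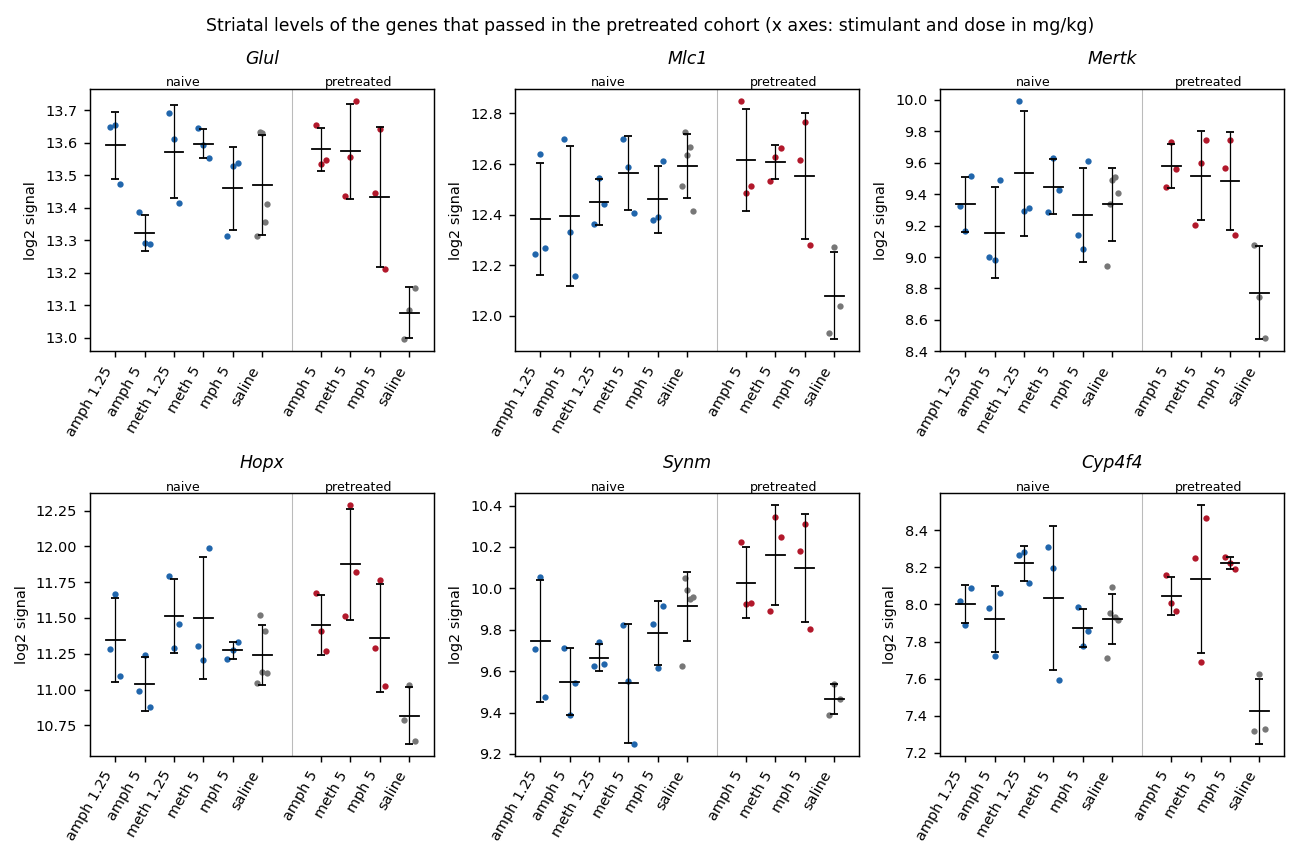
Log2 signal (y axis) on each striatal array for the 6 genes that rose in pretreated striatum, by group (x axis); dots are arrays and bars are group means ± SD. The saline arrays of the pretreated cohort are the low group in each panel, for example 9.39 to 9.54 for Synm against 9.81 to 10.35 with stimulants.

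The count of 6 rested on single arrays. Without a saline array of the pretreated cohort it was 0 (sample 1), 1 (sample 2, Cyp4f4) and 0 (sample 3). Without a stimulant array it ran from 2 (amphetamine sample 1) to 9 (methamphetamine sample 1), and was 3 without methamphetamine sample 2 or 3 or methylphenidate sample 1 or 2. Over these 12 runs Hopx and Mertk each passed in 3, Mlc1 in 4, Synm in 8, Glul in 9 and Cyp4f4 in 10, while the median difference kept between 0.26 and 0.34. It was 3 without the intensity trend in the variance, 2 with the Gapdh 3' to 5' ratio as a covariate, and the median was 0.17 after quantile normalisation.

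Markers of other cells moved with these differences. Over the same contrast, 28 of 34 further astrocyte genes lay above saline (median 0.19), as did 8 of 9 genes of reactive astrocytes (0.23), 11 of 12 microglial markers (0.28), 6 of 8 ependymal and subventricular markers (0.41), 5 of 6 cortical neuron markers (0.78) and 17 of 18 genes induced by glucocorticoids (0.65). Striatal projection neuron markers lay above saline for 0 of 13 (median -0.30), oligodendrocyte markers for 3 of 19 (-0.24), endothelial markers for 4 of 12 (-0.18) and neuronal markers for 6 of 18 (-0.04). No gene of these lists passed. The mean of the striatal projection markers lay between 11.97 and 12.35 with stimulants, against 12.38 to 12.55 with saline, and that of the cortical markers between 9.42 and 10.66, against 8.78 to 9.70. The Gapdh 3' to 5' ratio, a measure of RNA integrity, ran from 0.88 to 1.24 with stimulants and from 0.74 to 1.04 with saline (log2). The part of dissection, other cells and RNA quality in the differences of the astrocyte genes was not tested.

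The median difference in pretreated striatum was 0.29 for amphetamine, 0.22 for methamphetamine and 0.34 for methylphenidate. Of the 29 genes, 27, 23 and 28 lay above saline in that order, against 48.9%, 46.5% and 46.6% of all genes. With methamphetamine alone, Hopx rose 2.08-fold (1.06 ± 0.208, adjusted p = 0.0243), Glul by 0.50 (adjusted p = 0.0323), Synm by 0.70 (adjusted p = 0.0377) and Cyp4f4 by 0.71 (adjusted p = 0.0441), where 0.703% of all genes passed. With 1 of the 6 arrays left out, Hopx, Glul and Synm each passed in 1 of 6 runs, the one without methamphetamine sample 1, and Cyp4f4 in 0 of 6. None of the 29 passed with amphetamine (0% of all genes), where 14 were higher at an unadjusted p under 0.05 against 4.5% of all genes. None passed with methylphenidate (0.0821% of all genes), where 16 were higher at that level against 5.72%, and Cyp4f4 had the lowest adjusted p (0.80, adjusted p = 0.0674). Set directly against each other at 5 mg/kg in pretreated rats, the stimulants gave no difference that passed in any of the 29 genes in either region (6 comparisons, each with 0% of all genes called). At an unadjusted p under 0.05, between 0 and 6 of the 29 differed in these comparisons, and between 3.08% and 8.34% of all genes. Both are ranges over the 6 comparisons, so a count is not set against the share of its own comparison. In striatum, the difference of methamphetamine minus amphetamine ran from -0.40 for Id3 (95% interval -0.84 to 0.03) to 0.47 for Gjb6 (-0.13 to 1.07), methamphetamine minus methylphenidate from -0.44 for Slc1a2 (-0.74 to -0.15) to 0.54 for Gjb6 (-0.06 to 1.14), and amphetamine minus methylphenidate from -0.31 for Slc7a10 (-0.68 to 0.06) to 0.29 for Id3 (-0.15 to 0.72). These intervals leave room for differences as large as those from saline, so the stimulants are not shown to act alike. Methamphetamine is amphetamine with a methyl group on its nitrogen.

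In naive striatum, none of the 29 genes passed over the 5 stimulant groups (8 genes in all, 0.0938%), and 6 of 29 lay above saline (50.9% of all genes), with a median of -0.10 against 0.00 for all genes. At an unadjusted p under 0.05, 7 were lower, against 5.70% of all genes, and none was higher. With the 3 stimulants at 5 mg/kg only, 0 of 29 passed (0.0117% of all genes), 3 lay above saline (52.9% of all genes), the median was -0.12 and 9 were lower at an unadjusted p under 0.05 (6.11% of all genes). Each of the role groups had a median below 0, from -0.04 for the metabolic genes to -0.26 for the cytoskeletal genes. The array means overlapped, from 11.53 to 11.88 with stimulants and from 11.70 to 11.96 with saline. By group, the median ran from -0.20 for amphetamine at 5 mg/kg, with 1 of 29 above saline (52.4% of all genes) and none past the threshold (0%), to 0.00 for methamphetamine at 1.25 mg/kg. Without the array of cortical profile, which is of that last group, its median was -0.05 on 2 arrays, and over all stimulants the count was also 0 (0.246% of all genes) with a median of -0.09 and 7 lower at an unadjusted p under 0.05. Against only the saline arrays of its own, low BioB set, amphetamine at 5 mg/kg had a median of -0.14. There 6 of 29 lay above saline and none passed (0.0117% of all genes).

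Other markers moved as well in naive striatum over all stimulants. Oligodendrocyte markers lay above saline for 0 of 19 (median -0.27), ependymal and subventricular markers for 0 of 8 (-0.40), striatal projection markers for 1 of 13 (-0.25), further astrocyte genes for 4 of 34 (-0.14) and microglial markers for 5 of 12 (-0.06). Neuronal markers lay above saline for 17 of 18 (0.16), cortical neuron markers for 6 of 6 (0.48) and glucocorticoid-induced genes for 12 of 18 (0.14). These medians include the array of cortical profile, and no gene of these lists passed. The Gapdh ratio ran from 0.46 to 1.23 with a median of 0.74 with stimulants, and from 0.53 to 1.16 with a median of 0.57 with saline. Their part in the lower astrocyte values was not tested.

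Gfap had the lowest value of the naive striatal contrast, -0.47 ± 0.131 (n = 15 and 5, adjusted p = 0.140), and -0.49 ± 0.132 without the array of cortical profile (adjusted p = 0.101). Its signals were 10.55, 11.04 and 10.51 with amphetamine at 1.25 mg/kg, 11.56, 11.52 and 11.38 with amphetamine at 5 mg/kg, 11.25, 11.06 and 10.93 with methamphetamine at 1.25 mg/kg, 11.67, 11.04 and 10.57 with methamphetamine at 5 mg/kg and 11.33, 11.45 and 11.36 with methylphenidate, against 11.69, 11.94, 11.87, 11.23 and 11.35 with saline. The last 2 saline arrays, from the low BioB set, were lower than the first 3, so the groups were also compared within each set. With amphetamine at 1.25 mg/kg, Gfap fell by 0.92 ± 0.186 against all 5 saline arrays (adjusted p = 0.0218, 0.34% of all genes) and by 1.13 against the 3 of its own, high set (adjusted p = 0.0043). Against all 5 it passed in 5 of 8 runs with 1 array left out. Over the 3 stimulant groups of the high set Gfap fell by 0.87 ± 0.155 (adjusted p = 0.0058) and Slc7a10 by 0.51 ± 0.114 (adjusted p = 0.0214), where 1.72% of all genes passed. Without the array of cortical profile these were -0.90 ± 0.156 (adjusted p = 0.0029) and -0.54 ± 0.114 (adjusted p = 0.0143), where 1.71% of all genes passed. Among the arrays of low BioB signal none of the 29 passed (0.0117% of all genes) and Gfap differed by 0.14 ± 0.190. The median over the 29 genes was -0.08 within each set. The stimulant groups of the 2 sets are different drugs and doses, so between sets the effects were not compared.

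The contrast between naive and pretreated striatum was tested as the difference of the stimulant effects at 5 mg/kg. All 29 genes had a higher stimulant effect in pretreated than in naive rats (47% of all genes), with a median of 0.44 against -0.02 for all genes. Only Synm passed, with 0.92 ± 0.169 (adjusted p = 0.0255), where 5 genes did in all (0.0586%). At an unadjusted p under 0.05, 20 of the 29 were higher, against 7.46% of all genes. Mlc1 (0.63, adjusted p = 0.0726), Glul (0.46, adjusted p = 0.0815), Sparcl1 (0.44, adjusted p = 0.0815), Cyp4f4 (0.69, adjusted p = 0.0872), Mertk (0.80, adjusted p = 0.0993) and Gfap (0.77, adjusted p = 0.112) came next and did not pass, and Slc4a4 was least, at 0.01. By stimulant, the median was 0.59 for amphetamine, with 29 of 29 above 0 (47.6% of all genes) and none past the threshold (0.0352%). It was 0.28 for methamphetamine, with 25 of 29 above 0 (47.1%) and Synm past the threshold (1.07, adjusted p = 0.0445; 0.0586%), and 0.46 for methylphenidate, with 27 of 29 above 0 (47%) and none past the threshold (0.0117%). In the naive cohort, amphetamine at 5 mg/kg and methylphenidate lie in the low BioB set, while the saline arrays lie in both. The medians by stimulant are given against all naive saline arrays, not within a set. Over the stimulants together, with the BioB set as a block, Synm also passed (0.94 ± 0.177, adjusted p = 0.0317). The count of 1 became 0 without pretreated saline sample 1 or 3, naive saline sample 2 or 3, naive amphetamine sample 3 or naive methylphenidate sample 1. It was 3 without the array of cortical profile, which is in none of the groups compared. That array enters all striatal tests through their shared estimate of spread.

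**Figure D3:**
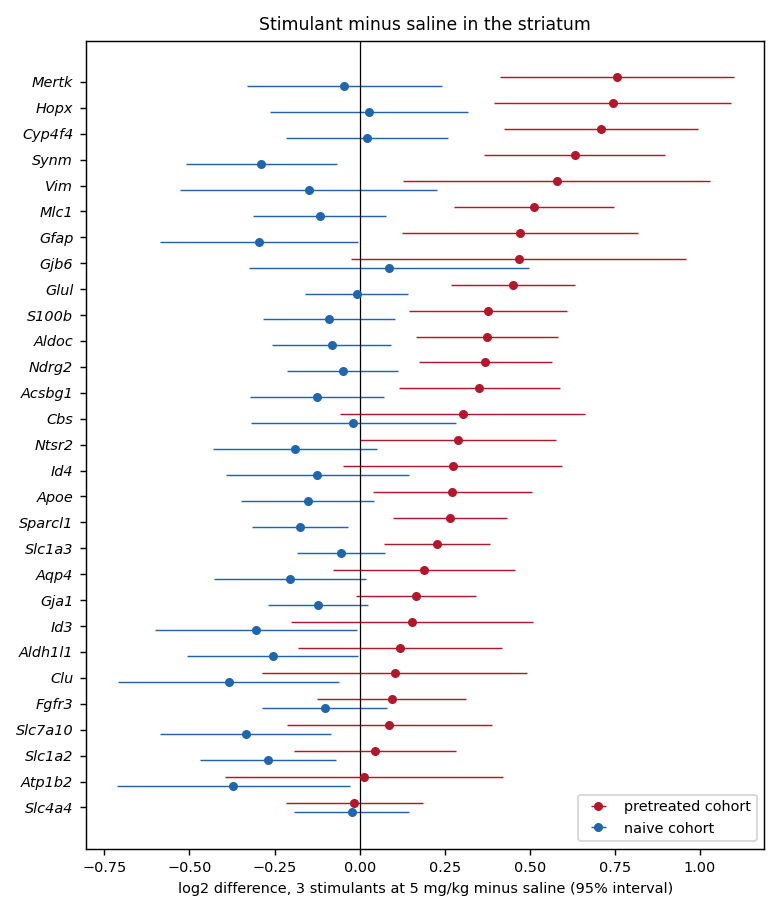
Log2 difference of stimulants at 5 mg/kg minus saline in striatum (x axis, 95% intervals) for the 29 tested genes, pretreated rats in red above naive rats in blue. For Synm the pretreated value is 0.63 and the naive value -0.29, and their intervals lie on opposite sides of 0; Slc4a4 is near 0 in both.

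Both the stimulant and the saline groups differed between cohorts. Among saline rats, 1 of 29 genes, Slc4a4, was above 0 in pretreated minus naive striatum (47.3% of all genes), with a median of -0.39 against -0.02 for all genes. Gfap fell by 0.77 ± 0.186 (adjusted p = 0.0213), Mlc1 by 0.51 ± 0.125 (adjusted p = 0.0228), Glul by 0.39 ± 0.0971 (adjusted p = 0.0247), Ntsr2 by 0.55 ± 0.154 (adjusted p = 0.0452) and Id3 by 0.67 ± 0.190 (adjusted p = 0.0481). That is 5 of 29, where 3.13% of all genes passed and 2.09% passed downwards. Glul averaged 13.08 ± 0.08 in saline rats of the pretreated cohort and 13.47 ± 0.15 in naive saline rats (SD, n = 3 and 5), and Synm averaged 9.46 ± 0.07 in the pretreated and 9.91 ± 0.17 in the naive cohort. Id3 averaged 10.44 ± 0.10 in the pretreated and 11.10 ± 0.51 in the naive cohort. On the naive saline arrays, Id3 and Gfap were lower in the low than in the high BioB set. The cohort differences are given against all 5 naive arrays only, not within a set. Synm's saline difference of -0.45 ± 0.142 did not itself pass (adjusted p = 0.0721). Since these rats had the same labelled treatment, cohort and array handling cannot be told apart.

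Among rats given stimulants at 5 mg/kg, astrocyte genes were mostly higher in the pretreated than in the naive striatum, with 23 of 29 above 0 (40% of all genes) and a median of 0.16. Synm rose by 0.47 ± 0.0915 (adjusted p = 0.0028), Ndrg2 by 0.29 ± 0.0672 (adjusted p = 0.0104), Slc1a3 by 0.20 ± 0.0536 (adjusted p = 0.0207) and Gja1 by 0.20 ± 0.0609 (adjusted p = 0.0397), where 6.92% of all genes passed and 2.20% passed upwards. Synm averaged 10.10 ± 0.21 in pretreated and 9.63 ± 0.22 in naive stimulant rats (SD, n = 9 each). The 2 cohort differences of Synm, 0.47 with stimulants and -0.45 with saline, make up its difference in stimulant effect in about equal shares, whereas Glul differed by 0.07 between the stimulant groups, which averaged 13.53 ± 0.15 in pretreated and 13.46 ± 0.14 in naive rats, and by -0.39 between the saline groups. Naive amphetamine and methylphenidate arrays are of the low BioB set, while the pretreated arrays had BioB signals near the high set. Between naive striatal saline arrays of the high and the low set, 21 of 29 genes were higher in the high set, with a median of 0.15. The part of the BioB signal in the cohort difference among stimulant rats was not tested.

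The same cohort contrast among other lists gave 33 of 34 further astrocyte genes above 0 (median 0.35), 7 of 9 reactive genes (0.18), 12 of 12 microglial markers (0.30), 8 of 8 ependymal and subventricular markers (0.92), 16 of 18 glucocorticoid-induced genes (0.65) and 5 of 6 cortical neuron markers (0.24), against 2 of 13 striatal projection markers (-0.21), 2 of 12 endothelial markers (-0.26), 4 of 18 neuronal markers (-0.17) and 9 of 19 oligodendrocyte markers (-0.08). Of the glycogen and lactate genes, 7 of 13 lay above 0 (median 0.05). In saline rats, the glutathione transferase Gstm1 (-1.04 ± 0.210, adjusted p = 0.0077), the proteoglycan brevican (Bcan, -0.65 ± 0.162, adjusted p = 0.0260), Stat3 (-0.60 ± 0.145, adjusted p = 0.0216) and the ciliary regulator Foxj1 (-1.25 ± 0.318, adjusted p = 0.0292) fell in pretreated against naive striatum. Their part in the differences of the 29 genes was not tested.

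In pretreated PFC, none of the 29 genes passed over the 3 stimulants (0.0703% of all genes), and 26 of 29 lay above saline (46.5% of all genes) with a median of 0.10. At an unadjusted p under 0.05, 6 were higher, against 2.59% of all genes: Cbs (0.49 ± 0.119, adjusted p = 0.148), Id4 (0.35), Mertk (0.41), Cyp4f4 (0.36), Synm (0.34) and Vim (0.50). Mertk, Cyp4f4 and Synm are among the genes that rose in striatum. Cbs rose with methylphenidate alone, 1.81-fold (0.85 ± 0.146, adjusted p = 0.00996), where 0.0938% of all genes passed. Its signals were 8.95, 8.99 and 8.92 with amphetamine, 8.85, 9.0 and 8.86 with methamphetamine and 9.44, 9.67 and 9.29 with methylphenidate, against 8.65, 8.77 and 8.42 with saline. All stimulant arrays lay above all saline arrays, and the methylphenidate arrays above the rest. Cbs averaged 8.61 ± 0.18 on these saline arrays and 9.29 ± 0.30 in naive PFC saline rats (SD, n = 3 and 5). Medians were 0.24 for methylphenidate (28 of 29 above 0, 47.8% of all genes), 0.10 for amphetamine (22 of 29, 44.2%) and 0.00 for methamphetamine (14 of 29, 50.3%). None passed with amphetamine (0.0234% of all genes) or methamphetamine (0.0117%). The array mean ran from 11.48 to 11.98 with stimulants and from 11.37 to 11.61 with saline, so the groups overlapped. With 1 of its 6 arrays left out, Cbs with methylphenidate passed in 4 of 6 runs. Over the 3 stimulants, further astrocyte genes lay above saline for 19 of 35 (median 0.06), a lesser share than the 26 of 29. Striatal projection markers did for 1 of 11 (median -0.41), oligodendrocyte markers for 1 of 17 (-0.24), neuronal markers for 5 of 19 (-0.06) and microglial markers for 4 of 10 (-0.01). Glucocorticoid-induced genes did for 16 of 17 (0.44) and endothelial markers for 8 of 13 (0.19). None of these lists held a gene past the threshold. The mean of the projection markers ran from 8.68 to 9.21 with stimulants and from 8.93 to 9.74 with saline. Their part in the astrocyte values was not tested.

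In naive PFC none passed either (0.0586% of all genes), with 20 of 29 above saline (50.9% of all genes) and a median of 0.06. At an unadjusted p under 0.05, 1 was higher (4.14% of all genes) and 1 lower (4.6%). Slc1a2 had the lowest value, -0.32 ± 0.0863 (adjusted p = 0.196), with signals from 8.09 to 8.53 around a median of 8.28 on the 14 stimulant arrays, against 8.80, 8.65, 8.49, 8.51 and 8.54 with saline. The groups overlapped. Of the other lists, further astrocyte genes lay above saline for 15 of 35 (median -0.03), unlike the 20 of 29. Oligodendrocyte markers did for 3 of 17 (median -0.25, with Mag past the threshold), cortical neuron markers for 1 of 11 (-0.11) and glucocorticoid-induced genes for 13 of 17 (0.20). Within the arrays of high BioB signal, Gjb6 rose by 0.60 ± 0.107 (adjusted p = 0.0140, 0.445% of all genes), and within those of low BioB signal it differed by -0.48 ± 0.128 (adjusted p = 0.533). With methamphetamine at 1.25 mg/kg, on 2 arrays, Ndrg2 (0.59), S100b (0.56), Aldoc (0.52), Hopx (0.48), Id4 (0.45) and Glul (0.41) rose and Slc1a2 fell by 0.43, 7 of 29 where 11.1% of all genes passed. With 1 of the 7 arrays left out, these passed in 2 (Hopx, Slc1a2) to 6 (Id4) of 7 runs. In the same contrast 5 of 17 oligodendrocyte markers fell and 1 rose (median -0.47), and 3 of 11 striatal projection markers fell (-0.13). Within the high BioB set, 1 of the 29 passed, Gjb6 (0.68, adjusted p = 0.0163), where 4.89% of all genes did, so the share of the 29 was no higher than that of genes at large. The difference of stimulant effects between cohorts was positive for 28 of 29 genes in PFC (46.2% of all genes), with a median of 0.15, none past the threshold (0.0117% of all genes) and 5 higher at an unadjusted p under 0.05 (2.02%). Among PFC saline rats, Cbs fell by 0.68 in the pretreated against the naive cohort (adjusted p = 0.0111, 1.86% of all genes), and with stimulants Slc1a2 rose by 0.26 (adjusted p = 0.0408, 6.93% of all genes).

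**Figure D4:**
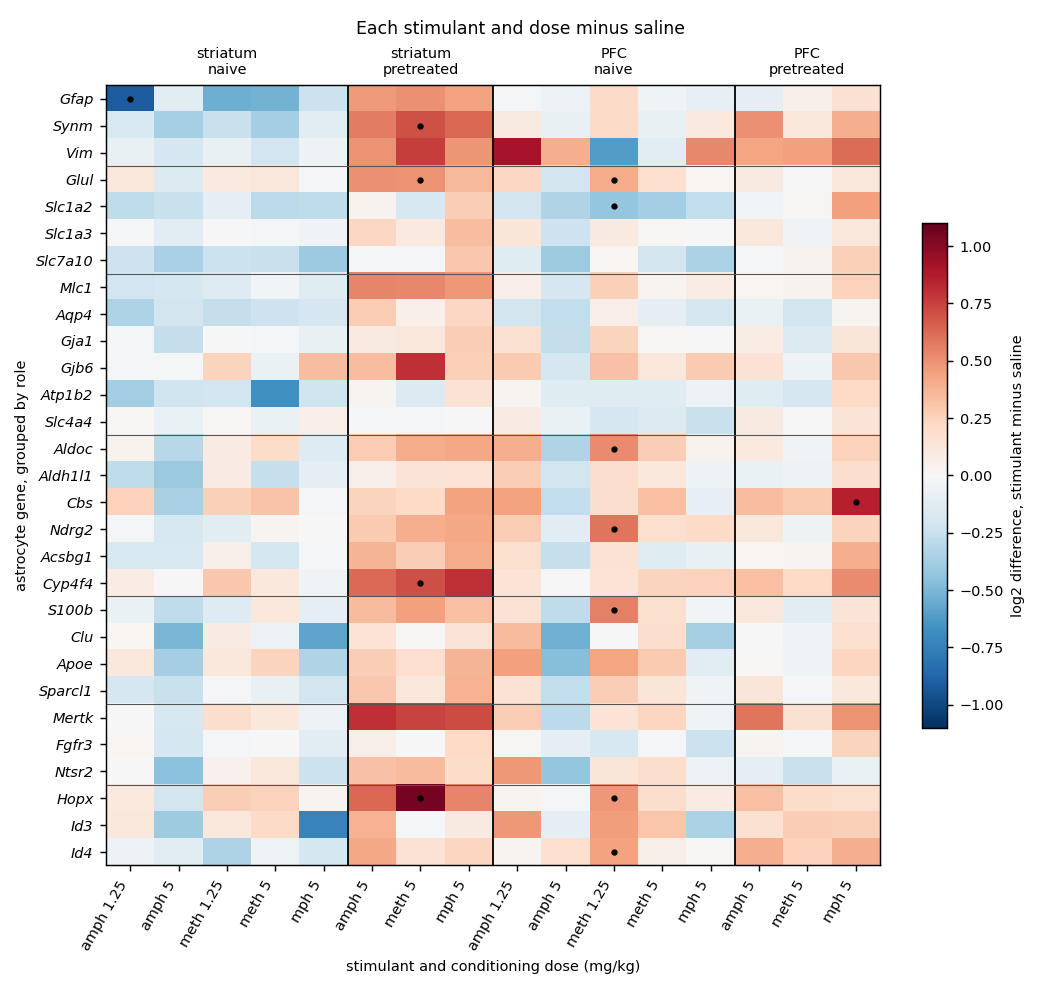
Log2 difference from saline (colour) for the 29 tested genes (rows, grouped by role) in each stimulant and dose group of each cohort and region (columns); a black dot marks an adjusted p under 0.05. The pretreated striatal columns are mostly positive (medians 0.22 to 0.34), while the naive striatal columns hold 1 marked gene, Gfap with amphetamine at 1.25 mg/kg.

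Dose could be compared in naive rats. For methamphetamine, whose 2 doses lie in the same BioB set, none of the 29 genes passed between 5 and 1.25 mg/kg in striatum (median -0.01) or PFC (median -0.16), and no gene of the 8530 was called (0%). Without the array of cortical profile the striatal median was 0.05 and again no gene was called (0%). With all arrays, at an unadjusted p under 0.05, 0 of the 29 differed in striatum and 3 were lower in PFC (7.37% of all genes). For amphetamine, whose 5 mg/kg arrays lie in the low and 1.25 mg/kg arrays in the high set, 10 of 29 were lower at 5 mg/kg in PFC (7.07% of all genes called, 3.85% lower): Apoe (-0.92), Ntsr2 (-0.90), Clu (-0.88), Aldoc (-0.74), Cbs (-0.72), Mertk (-0.55), Glul (-0.43), Sparcl1 (-0.43), Gja1 (-0.43) and Slc1a3 (-0.36). Apoe, for example, had 13.30, 13.16 and 13.15 at 5 mg/kg, against 14.05, 14.22 and 14.09 at 1.25 mg/kg, beside saline arrays at 14.07, 13.86 and 13.65 in the high set and 13.44 and 13.34 in the low set. The saline arrays differed between the sets in the same direction. With 1 of the 6 arrays left out, Apoe, Ntsr2, Clu, Aldoc and Cbs passed in 6 of 6 runs, Mertk and Sparcl1 in 2, Gja1 in 1, and Glul and Slc1a3 in 0. In the same contrast 6 of 11 striatal projection markers fell (median -0.70), as did 3 of 10 microglial markers (-0.35) and 6 of 17 glucocorticoid-induced genes (-0.51). The mean of the projection markers was 9.0, 9.51 and 8.81 at 5 mg/kg, against 9.89, 9.70 and 9.46 at 1.25 mg/kg, and the Gapdh ratio 0.80, 0.58 and 0.69, against 0.42, 0.38 and 0.43. Their part in the 10 differences was not tested. In striatum Gfap was higher at 5 mg/kg (0.79, adjusted p = 0.0491, 1.68% of all genes), a call kept in 1 of 6 runs with 1 array left out. With the BioB set as a block, none of these 11 differences passed, while Gjb6 was lower at 5 mg/kg in PFC (-1.35 ± 0.192, adjusted p = 0.0013). Dose and set are bridged for amphetamine only through the saline arrays of each set.

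Among naive rats at 5 mg/kg, 8 differences between stimulants passed, all with methamphetamine, of the high set, above a stimulant of the low set. In striatum these were Id3 (0.95) and Apoe (0.58) against methylphenidate (1.57% of all genes) and Apoe (0.62) and Aldoc (0.51) against amphetamine (1.58%), and in PFC Apoe (0.75), Clu (0.72), Aldoc (0.61) and Cbs (0.61) against amphetamine (1.45%). With 1 of the 6 arrays left out, Apoe against amphetamine in striatum passed in 3 of 6 runs and each of the other 7 in 0 or 1. Id3 in striatum had 11.50, 11.25 and 11.21 with methamphetamine and 10.41, 10.45 and 10.24 with methylphenidate, and 11.48, 11.37 and 11.57 on the saline arrays of the high set, against 10.56 and 10.54 on those of the low set. Between saline arrays of the high and low set, Id3 differed by 0.93 (adjusted p = 0.0057), Clu by 0.88 (adjusted p = 0.0212) and Slc7a10 by 0.68 (adjusted p = 0.0212) in striatum, where 2.57% of all genes passed. In PFC, Gfap (0.91, adjusted p = 0.0415), Id3 (0.82, adjusted p = 0.0078) and Clu (0.79, adjusted p = 0.0019) were higher and Gjb6 (-0.88, adjusted p = 0.0019) was lower in the high set, where 5.73% passed. With the BioB set as a block none of the 8 passed, while Gjb6 was higher with methamphetamine than amphetamine in PFC (1.19 ± 0.192, adjusted p = 0.0058). The difference between amphetamine and methylphenidate, which share the low set, passed for none of the 29 genes in either region (0% of all genes called); at an unadjusted p under 0.05, 0 differed in striatum and 5 were lower with amphetamine in PFC (2.90% of all genes).

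The regions differed in saline rats. In the naive cohort 10 of 29 genes were higher and 1 lower in striatum than in PFC, 11 of 29 where 40.4% of all genes passed, a share near that of genes at large. Id4 was 1.90-fold higher (0.93 ± 0.126, adjusted p = 3.38e-08), with 12.13, 12.27, 12.25, 11.93 and 11.97 in striatum, against 11.23, 11.39, 11.15, 11.08 and 11.08 in PFC, without overlap. Vim (0.87 ± 0.217, adjusted p = 0.0010), Id3 (0.68 ± 0.170, adjusted p = 0.0010), Ntsr2 (0.39), Synm (0.35), Ndrg2 (0.33), Slc4a4 (0.32), S100b (0.31), Aldoc (0.28) and Gja1 (0.23) were also higher. Hopx was lower (-0.55 ± 0.147, adjusted p = 0.0024), at 11.05, 11.52, 11.12, 11.41 and 11.12 in striatum, against 11.78, 12.00, 11.68, 11.77 and 11.71 in PFC.

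In saline rats of the pretreated cohort 5 of 29 differed between regions (27% of all genes). Id4 (0.77 ± 0.163, adjusted p = 0.0002) and Slc4a4 (0.68 ± 0.115, adjusted p = 6.31e-06) were higher in striatum, and Hopx (-1.08 ± 0.190, adjusted p = 1.43e-05), Glul (-0.44 ± 0.114, adjusted p = 0.0024) and Sparcl1 (-0.27 ± 0.102, adjusted p = 0.0387) were lower. Glul had 12.99, 13.08 and 13.15 in striatum, against 13.61, 13.46 and 13.49 in PFC. Id4, Slc4a4 and Hopx thus passed in the same direction in both cohorts. The difference between regions in the stimulant effect passed for none of the 29 genes (0% of all genes in either cohort). Its median was 0.20 in pretreated rats, with 23 of 29 above 0 (49.7% of all genes) and 3 higher at an unadjusted p under 0.05 (2.43% of all genes), and -0.14 in naive rats, with 3 of 29 above 0 (49.9%) and 5 lower (2.63%). Without the array of cortical profile the naive median was -0.16, again with none past the threshold (0% of all genes).

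**Figure D5:**
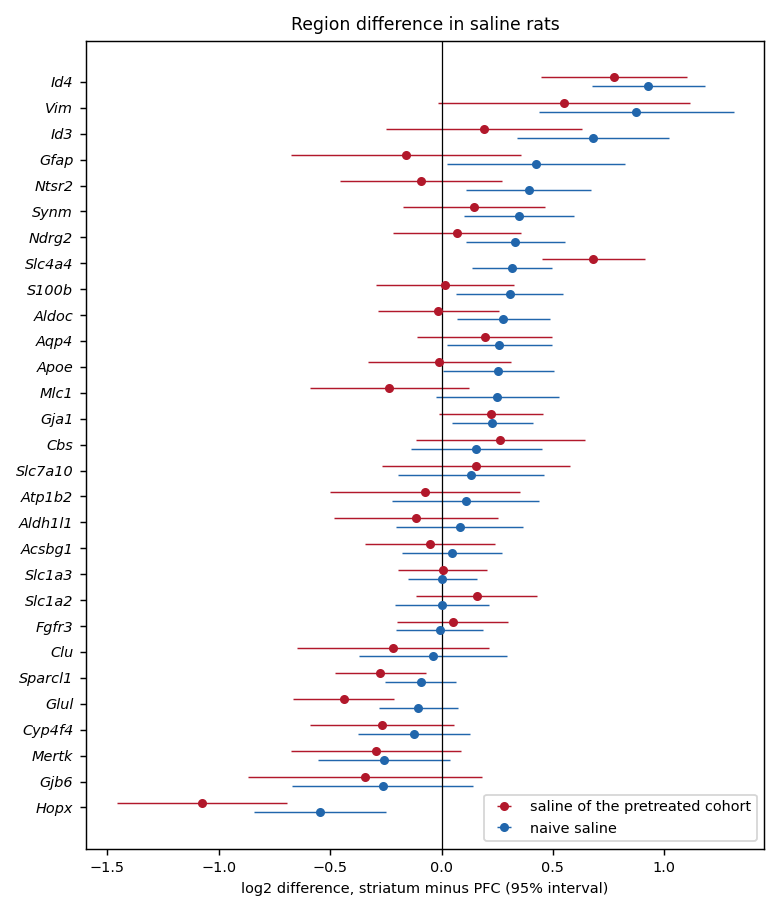
Log2 difference of striatum minus PFC (x axis, 95% intervals) for the 29 tested genes in saline rats, pretreated cohort in red above naive cohort in blue. Id4 (0.77 and 0.93) lies right of 0 and Hopx (-1.08 and -0.55) left of 0 in both cohorts.

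The members also varied among themselves between arrays of 1 group. Over the 63 arrays and 20 groups, the pooled replicate SD was smallest for Slc1a3 (0.117), Sparcl1 (0.120) and Glul (0.137) and largest for Vim (0.364), Gjb6 (0.338) and Gfap (0.332). Deviations from the group means correlated with a median r of 0.30 over the 406 pairs of genes, and 347 pairs lay above 0. Correlations among other genes were not computed, so it is not shown whether these exceed those of genes at large. S100b and Ndrg2 moved most closely together (r = 0.93), followed by Aldoc with Apoe (0.88) and Aldoc with Glul (0.83), whereas Hopx with Slc4a4 (-0.60) and Gjb6 with Id4 (-0.59) and Id3 (-0.59) moved in opposition. Mlc1, Apoe and Sparcl1 had the highest median correlation with the other members (0.47 each), and Vim (0.02) and Gjb6 (0.05) the lowest. These correlations describe points that share arrays and BioB sets, and the striatal array of cortical profile is among them. In naive saline rats Hopx was lower in striatum than in PFC (-0.55), while Slc4a4 (0.32), Id3 (0.68) and Id4 (0.93) were higher. The part of that array in the opposed pairs was not tested.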

How the data were processed

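The authors deposited 1 table of MAS5 signals, a linear intensity per probe set of an Affymetrix rat array, with 1 column for each of the 63 arrays; MAS5 is named per the submitters' processing notes, and its version is not given in the sources used here. Every array had a trimmed mean (2% off each end) of 500.14 to 500.18 and a median signal of 120.4 to 155.6, so the deposited intensity was scaled per array. Scanner files were not used here, so background and saturation per spot are unknown, and the number of arrays limits the precision.

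Signals under 1 were set to 1 (18232 values) and log2 was taken. Of the 31099 probe sets, 20832 carried a single symbol in the platform annotation of 2016, 436 several and 9831 none; the probe set of highest mean stood for each of 14218 genes, and a filter dropped the dimmest 40% per region, so that 8530 were tested. The lowest mean tested was 7.56 in PFC and 7.58 in striatum. Groups were taken from the sample titles. Striatal naive saline sample 1 has a description that names PFC, while its marker means were 12.67 for striatal projection neurons and 9.24 for cortical neurons. limma 3.58.1 in R 4.3.3 (lmFit, eBayes with an intensity trend) fitted a mean per group to all arrays of a region (21 residual degrees of freedom in PFC, 22 in striatum), or to both regions for region contrasts (43), with Benjamini-Hochberg adjustment over all genes of a comparison. The script was tested on simulated data. Intervals cover 95%. Comparisons within a cohort share their saline arrays.

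The 32 genes, the other gene lists (276 genes, of which 250 matched by symbol and 2 through a synonym) and the alternatives were chosen with earlier results of these data known. Each of the 32 may be named; of the other lists, up to 4 genes per comparison that passed. Sample numbers were not taken as pairs: deviations of same-numbered arrays of other groups in a region correlated above 0.1 in 37 of 121 pairs. Between regions, same-numbered arrays of 1 condition did so in 23 of 31 pairs (median r 0.20), against 16 of 72 with other numbers (median -0.10), so some may share a rat; the labels do not say so, and the regions were fitted as unpaired. The alternatives were quantile normalisation, another offset, other filters, all probe sets, a fit without the trend, the Gapdh ratio, the BioB set or the sample number as a term, and arrays left out; the high BioB set without the array of cortical profile was added after seeing the data.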

Additional observations from a re-analysis of the deposited data

Results flagged for a closer look

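Synm on naive striatal saline sample 1, whose description names PFC, stood apart from the other 4 arrays of its group, at a log2 signal of 9.62 against 9.95 to 10.05. It was the only lone array among 62 pairs of a gene and a group of 4 or more arrays, and chance marks about 1 pair in 20. The stimulant effect on Synm at 5 mg/kg in striatum differed between pretreated and naive rats, by 0.92 (adjusted p = 0.0255) over the 3 stimulants and by 1.07 (adjusted p = 0.0445) for methamphetamine.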

How the results depend on the processing

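Results counted here are the numbers of the 29 genes past the threshold. For the pretreated striatum (6) the count was 3 without the intensity trend, 2 with the Gapdh ratio and 0 to 9 with an array left out. For the difference of stimulant effects between cohorts in striatum (1) it was 10 with the sample number as a replicate block, 3 without the array of cortical profile and 0 to 8 with an array left out. The replicate block also gave 1 in naive PFC, 4 in naive striatum and 1 in pretreated PFC, each 0 otherwise; the high BioB set alone gave 1 in naive PFC and 2 in naive striatum, also 2 without the array of cortical profile, a setting chosen after seeing the data. With same-numbered arrays of both regions as a block, the region counts were 14 in naive saline rats (11 otherwise) and 6 in saline rats of the pretreated cohort (5 otherwise), the genes named there all passed, and the region difference in stimulant effect stayed at 0. For single stimulants against saline (13 over 16 comparisons), the count was 8 after quantile normalisation, 8 without a filter, 26 with the replicate block, 8 with the BioB set as a block, 7 with arrays of the cohort only and 6 to 19 with an array left out. For stimulants against each other (8 over 12 comparisons) these were 4, 3, 15, 1, 0 and 4 to 9, and 3 with the Gapdh ratio. For dose (11 over 4 comparisons), the count was 7 after quantile normalisation, 7 without a filter, 1 with the BioB set as a block, 7 with arrays of the cohort only and 6 to 17 with an array left out. With an array left out, the region counts were 6 to 14 in naive and 4 to 5 in saline rats of the pretreated cohort; naive striatum ran from 0 to 1, and naive PFC, pretreated PFC, the cohort difference in PFC and the region difference in stimulant effect stayed at 0. The median of naive PFC turned to -0.05 with the replicate block, and that of pretreated striatum was 0.17 after quantile normalisation. Of 586 values for the genes named as passing under the other settings, 471 kept their side of the threshold, 112 kept their direction only and 3 changed sign: S100b with methamphetamine at 1.25 mg/kg in naive PFC (-0.0013) and Sparcl1 for the amphetamine dose in PFC (0.0224), both after quantile normalisation, and Clu for methamphetamine minus amphetamine in PFC (-0.0696) with the BioB set as a block. None of 439 values with an array left out changed sign. In the fit of all probe sets, a gene's value was that of its probe set with the smallest p, so a probe set that differed was not counted. The BioB set as a block left the differences within the pretreated cohort and between regions in saline rats unchanged, so their direction could not turn. Values of these 2 kinds are not separate checks of a result. The replicate block is given here only, since the numbers were not taken as pairs. The causes were not tested.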
